A study of Mus musculus with 9 samples.

Results

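The transcripts described here encode 10 plasma membrane amino acid transporters of the solute carrier (Slc) families. Slc7a5 and Slc3a2 encode the light and heavy chain of the leucine carrier LAT1, Slc7a11 the light chain of the cystine carrier xCT, and Slc7a1 and Slc7a3 the cationic carriers CAT1 and CAT3. Slc1a4 and Slc1a5 encode the neutral exchangers ASCT1 and ASCT2, Slc38a1 and Slc38a2 the glutamine and alanine carriers SNAT1 and SNAT2, and Slc6a9 the glycine carrier GLYT1. They were taken by gene symbol, 1 row each, from the 22322 genes of the deposited tables, in which 377 symbols begin with Slc. RNA-seq was done on embryoid bodies of R1 mouse embryonic stem cells, grown before the assay in medium with serum, added glutamine and non-essential amino acids. All groups had spent 6 days in suspension after LIF, the cytokine that holds these cells undifferentiated, was withdrawn. The groups carried a hairpin to knock down Pfkp (sh-Pfkp, labelled Pfkp knockdown), one to knock down Lin41, listed in the tables as Trim71 (sh-Lin41, labelled Lin41 knockdown), or a control hairpin (sh-ctrl, labelled WT), with 3 libraries each. The product of Pfkp is platelet-type phosphofructokinase, an enzyme of glycolysis, and that of Trim71 is an RNA-binding protein of stem cells. By its title the study asked how Pfkp acts on Lin41 as a protein kinase during differentiation. The labels name 1 hairpin per gene and no rescue, and do not state whether replicate libraries stem from different cultures. A p-value here therefore measures the spread among these libraries alone, and that spread may be technical.

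Amino acid carriers set which amino acids a cell can draw from its medium. LAT1 needs its heavy chain, which it shares with xCT, and exchanges intracellular glutamine for leucine and other large neutral amino acids, a supply that mTORC1 senses. Glutamine enters mainly through ASCT2 and the sodium-coupled SNATs, and cystine brought in by xCT feeds glutathione synthesis. Mouse embryonic stem cells depend on glutamine and threonine in particular. When amino acids are short, the kinase GCN2 phosphorylates eIF2 alpha, translation of the transcription factor ATF4 increases, and ATF4 binds amino acid response elements in many of these genes.

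Promoter sequence was at hand for 6 of the 10 genes, with 9 start sites in all (RefSeq, GRCm38.p6, 250 bases before to 50 bases from the start on). Slc7a5, Slc7a3, Slc1a5 and Slc38a1 had no entry. The core of the amino acid response element was searched as TGATGNAA on both strands, and 3.97% of all 32851 promoters in the table held it. Slc7a11 (chromosome 3, minus strand, 50443564 to 50443863) held 2 matches, on opposite strands, with first bases at -66 and -47 relative to the start. Slc1a4 (chromosome 11, minus strand, 20332664 to 20332963) held 1 match at -4. These promoters are shown because they are the ones among the 6 genes that held this motif; capitals mark the matches.
Slc7a11: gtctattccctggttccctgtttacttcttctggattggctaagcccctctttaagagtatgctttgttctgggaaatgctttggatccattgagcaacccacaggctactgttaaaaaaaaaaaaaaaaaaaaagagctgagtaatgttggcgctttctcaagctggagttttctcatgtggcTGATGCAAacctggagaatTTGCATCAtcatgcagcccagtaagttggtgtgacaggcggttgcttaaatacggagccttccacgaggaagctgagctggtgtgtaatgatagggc
Slc1a4: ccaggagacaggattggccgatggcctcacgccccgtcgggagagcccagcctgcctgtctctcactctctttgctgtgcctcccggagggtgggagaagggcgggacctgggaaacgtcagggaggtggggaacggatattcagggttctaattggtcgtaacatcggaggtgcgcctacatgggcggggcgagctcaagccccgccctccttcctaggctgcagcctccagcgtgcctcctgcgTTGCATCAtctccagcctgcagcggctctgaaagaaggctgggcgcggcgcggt
The E-box CACGTG, found in 7.15% of all promoters, had no match in the 9 windows. The core of the antioxidant response element, TGACNNNGC, found in 12.4% of all promoters, matched once each in Slc7a1 (-11) and Slc38a2 (-27) and at 2 start sites of Slc6a9 (-46 and -45). A match is only a match of letters, and no binding was measured here. Sequence outside these windows, such as introns, was not searched, so a gene without a match may hold the motif elsewhere.

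Total counts were 15495194 to 20607683 per library, 13158 genes passed the filter on low counts, and all 10 transporters were among them. Levels are given as CPM, counts scaled to library size and composition, and fold changes are log2 values from edgeR's quasi-likelihood test, with Benjamini-Hochberg adjustment over all genes tested and a threshold of 0.05. Pfkp had 102.9 ± 1.89 CPM in sh-Pfkp and 247.1 ± 1.83 CPM in sh-ctrl, and Trim71 had 159.6 ± 4.89 CPM in sh-Lin41 and 268.8 ± 4.72 CPM in sh-ctrl (mean ± SD, n = 3 each), so each library group had less of its targeted transcript. The other target moved as well. Trim71 had 352.2 ± 6.77 CPM in sh-Pfkp (log2 fold change 0.39, adjusted p = 4.06e-15, edgeR). Pfkp had 227.1 ± 5.39 CPM in sh-Lin41 (log2 fold change -0.12, adjusted p = 8.68e-05, edgeR). All 10 pluripotency markers examined, such as Nanog and Sox2, were above 1 CPM in every group. They summed to 4871.4 to 4944.3 CPM in sh-Pfkp, 6061.5 to 6092.4 CPM in sh-Lin41 and 5282.6 to 5359.3 CPM in sh-ctrl. Of these 10 markers, 4 rose and 6 fell in sh-Pfkp against sh-ctrl, and 6 rose and 3 fell in sh-Lin41 against sh-ctrl. In sh-Pfkp, Nanog and Sox2 rose by 0.18 and 0.23 on the log2 scale, while Tdgf1 fell by 0.84. Of 8 mesoderm markers 6 to 7 per group, and of 8 endoderm markers 5 to 6 per group, were under 1 CPM. Neuroectoderm markers summed to 135.6 to 143.0 CPM in sh-Pfkp, 112.1 to 116.5 CPM in sh-Lin41 and 115.2 to 118.8 CPM in sh-ctrl, with 3 of 5 tested higher and 1 lower in sh-Pfkp against sh-ctrl and 1 higher and 1 lower in sh-Lin41 against sh-ctrl. Trophoblast markers summed to 56.1 to 60.8 CPM in sh-Pfkp, 38.9 to 41.6 CPM in sh-Lin41 and 51.5 to 56.6 CPM in sh-ctrl, with 1 of 4 tested higher and 3 lower in sh-Pfkp and all 4 lower in sh-Lin41. Pluripotency markers had the highest sum of these 5 lists in each group. Transcripts encoded by mitochondrial DNA summed to 67854.7 to 70279.5 CPM in sh-Pfkp and 71098.3 to 73822.4 CPM in sh-Lin41, against 50796.1 to 52732.7 CPM in sh-ctrl, and immediate early genes to 217.1 to 225.1 CPM in sh-Pfkp and 222.0 to 227.0 CPM in sh-Lin41, against 311.0 to 331.3 CPM in sh-ctrl. Fibroblast and stromal markers summed to 29.9 to 34.5 CPM in sh-Pfkp, 10.1 to 12.5 CPM in sh-Lin41 and 13.8 to 15.1 CPM in sh-ctrl. Of 10 such markers, Dcn, Lum and Postn were at 0 in all sh-Lin41 and sh-ctrl libraries. Of the 8 tested, 6 rose and 2 fell in sh-Pfkp against sh-ctrl, and 2 rose and 1 fell in sh-Lin41 against sh-ctrl. Beside these marker counts, 28.3% of all tested genes rose and 28.3% fell in sh-Pfkp, and 26.9% rose and 27.3% fell in sh-Lin41. The part of these shifts in the transporter results was not tested, and in bulk RNA a change in the cells present cannot be told apart from a change of transcript per cell.

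In sh-Pfkp against sh-ctrl, 9 of the 10 transporters passed the threshold, where 56.6% of all tested genes did and 63.3% of those averaging 10 CPM or more. Slc38a2, Slc7a3, Slc38a1 and Slc7a11 rose, while Slc1a4, Slc1a5, Slc6a9, Slc7a1 and Slc7a5 fell (28.3% of all tested genes rose and 28.3% fell). The median log2 fold change of the 10 was -0.09 and the median of its size 0.61, against -0.005 and 0.21 over all tested genes. In sh-Lin41 against sh-ctrl, 8 of the 10 passed, 6 higher and 2 lower, where 54.3% of all tested genes passed, 26.9% higher and 27.3% lower, and 63.4% of those averaging 10 CPM or more. There the median was 0.24 and the median size 0.34, against 0.004 and 0.20 over all tested genes. Set directly against each other, sh-Pfkp and sh-Lin41 differed in 8 of the 10, of which 2 were higher and 6 lower in sh-Pfkp, where 55.1% of all tested genes differed, 27.4% higher and 27.8% lower, and 64.4% of those averaging 10 CPM or more. The CPM of the 3 and 3 libraries did not overlap for 9 transporters in sh-Pfkp against sh-ctrl (61.0% of all tested genes), 8 in sh-Lin41 against sh-ctrl (59.0%) and 9 in sh-Pfkp against sh-Lin41 (59.8%). Both knockdowns are set against the same 3 control libraries, so their values are given side by side. Slc38a2 was the transporter with the largest fitted rise after Slc7a11, which rested on few counts and lost its call without sh-Pfkp replicate 3 (adjusted p = 0.0684, edgeR), and Slc7a1 had the largest gap between the knockdowns among all 10.

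**Figure D1:**
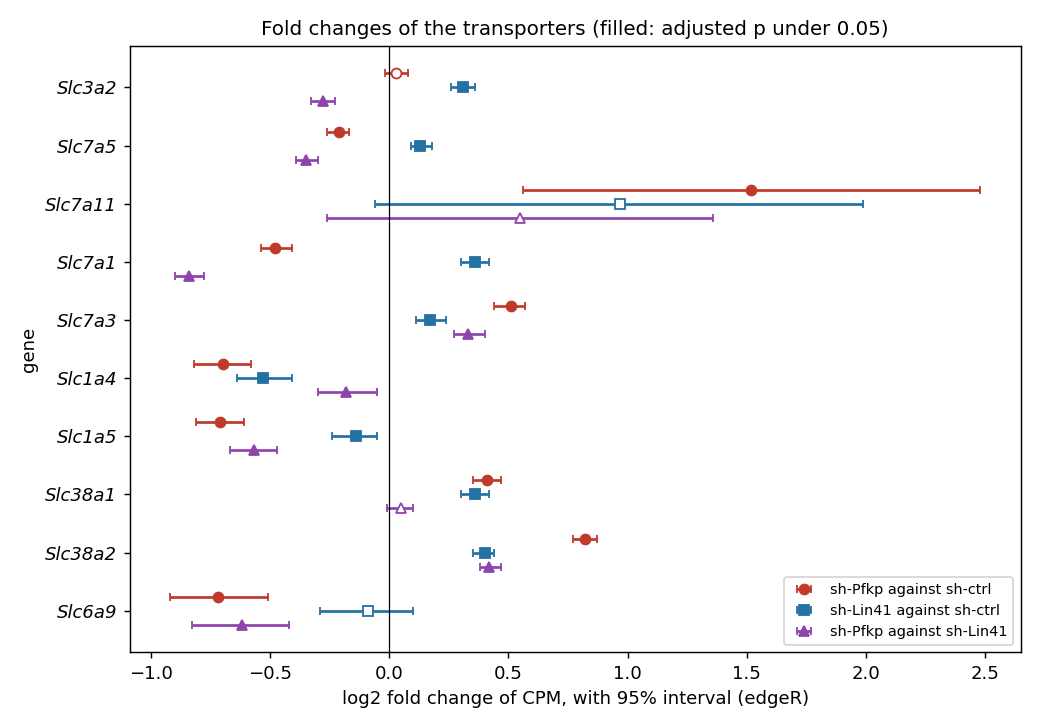
Log2 fold change of each transporter (x axis) with its 95% interval in sh-Pfkp against sh-ctrl, sh-Lin41 against sh-ctrl and sh-Pfkp against sh-Lin41. Filled symbols have an adjusted p under 0.05; Slc7a1 lies at -0.48 in sh-Pfkp and at 0.36 in sh-Lin41, and the interval of Slc7a11 in sh-Pfkp runs from 0.56 to 2.48.

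Leucine uptake rests on the LAT1 light chain Slc7a5 and its heavy chain Slc3a2, by FPKM the most abundant transcripts of the set in sh-ctrl. Slc7a5 had 286.1, 277.3 and 292.9 CPM in sh-Pfkp, 366.8, 360.6 and 360.0 CPM in sh-Lin41, and 328.0, 327.6 and 336.4 CPM in sh-ctrl. The 3 groups did not overlap: sh-Pfkp was lowest and sh-Lin41 highest. Its log2 fold change was -0.21 in sh-Pfkp (SE 0.0227, adjusted p = 1.65e-09, edgeR) and 0.13 in sh-Lin41 (SE 0.0221, adjusted p = 6.70e-06, edgeR), and -0.35 between the knockdowns (SE 0.0223, adjusted p = 1.42e-14, edgeR). Slc3a2, the chaperone chain that brings the light chains to the membrane, had 207.3, 204.5 and 202.5 CPM in sh-Pfkp, 247.3, 249.5 and 249.2 CPM in sh-Lin41, and 200.6, 195.4 and 203.9 CPM in sh-ctrl. The sh-Pfkp and sh-ctrl libraries overlapped, and all sh-Lin41 libraries lay above both. In sh-Pfkp its log2 fold change of 0.03 missed the threshold (95% interval -0.02 to 0.08, adjusted p = 0.250, edgeR) and its sign turned under other scalings, to -0.01 with upper quartile scaling. In sh-Lin41 it rose by 0.31 (SE 0.0239, adjusted p = 8.34e-13, edgeR), and sh-Pfkp lay 0.28 below sh-Lin41 on the log2 scale (log2 fold change -0.28, adjusted p = 8.33e-12, edgeR).

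Slc7a11, the cystine and glutamate exchanger that pairs with Slc3a2, was nearly absent. Its counts were 17, 10 and 23 in sh-Pfkp, 9, 14 and 13 in sh-Lin41, and 8, 2 and 6 in sh-ctrl. Every sh-Pfkp library was above every sh-ctrl library in counts, but no sh-ctrl library reached 10, so the gene passed the filter through the knockdown libraries. The fitted log2 fold change was 1.52 in sh-Pfkp (95% interval 0.56 to 2.48, adjusted p = 0.00685, edgeR) and 0.97 in sh-Lin41 (-0.06 to 1.99, adjusted p = 0.106, edgeR). The difference between the knockdowns, 0.55, had an interval of -0.26 to 1.36 (adjusted p = 0.244, edgeR). From the summed counts alone, 50 in sh-Pfkp against 16 in sh-ctrl, the depth-scaled ratio was 2.79 with an exact 95% counting interval of 1.56 to 5.25. The call was lost without sh-Pfkp replicate 3 (1.16, adjusted p = 0.0684, edgeR), and on log2(FPKM + 1) the difference was 0.08 (adjusted p = 0.232, limma). FPKM, which also scales for gene length, was 0.05 to 0.140 in sh-Pfkp and 0.0100 to 0.05 in sh-ctrl, which touch. Summed stromal markers, given above, were also higher in sh-Pfkp, and their part in this result was not tested.

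The cationic carriers, which take up arginine, lysine and ornithine, moved apart from each other. Slc7a1 had 92.5, 87.6 and 89.0 CPM in sh-Pfkp, 161.2, 160.5 and 158.6 CPM in sh-Lin41, and 125.0, 124.2 and 125.4 CPM in sh-ctrl. No library of one group reached the next: sh-Pfkp lay below and sh-Lin41 above the controls. It fell by 0.48 in sh-Pfkp on the log2 scale (SE 0.0309, adjusted p = 1.65e-14, edgeR) and rose by 0.36 in sh-Lin41 (SE 0.0284, adjusted p = 1.98e-12, edgeR). The direct difference was -0.84 (SE 0.0294, adjusted p = 3.17e-21, edgeR), and a percent change of -44.0. Slc7a3, the CAT3 gene, had 150.8, 144.1 and 152.3 CPM in sh-Pfkp, 115.2, 117.0 and 122.7 CPM in sh-Lin41, and 105.2, 104.3 and 104.9 CPM in sh-ctrl. Both knockdowns were above all control libraries, sh-Pfkp the more so. The log2 fold change was 0.51 in sh-Pfkp (SE 0.0315, adjusted p = 5.65e-15, edgeR), 0.17 in sh-Lin41 (SE 0.0322, adjusted p = 2.96e-05, edgeR) and 0.33 between them (SE 0.0303, adjusted p = 4.82e-11, edgeR). Per length, the FPKM of the 2 genes summed to 78.6 ± 2.22 in sh-Pfkp, 77.3 ± 1.89 in sh-Lin41 and 66.6 ± 0.827 in sh-ctrl (SD, n = 3 each). The FPKM ratio of Slc7a3 to Slc7a1 was 4.51, 4.61 and 5.15 in sh-Pfkp, 2.07, 2.23 and 2.26 in sh-Lin41, and 2.48, 2.26 and 2.48 in sh-ctrl. The sh-Pfkp ratios stood apart from all others, with a log2 difference of 0.98 from sh-ctrl and 1.12 from sh-Lin41.

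**Figure D2:**
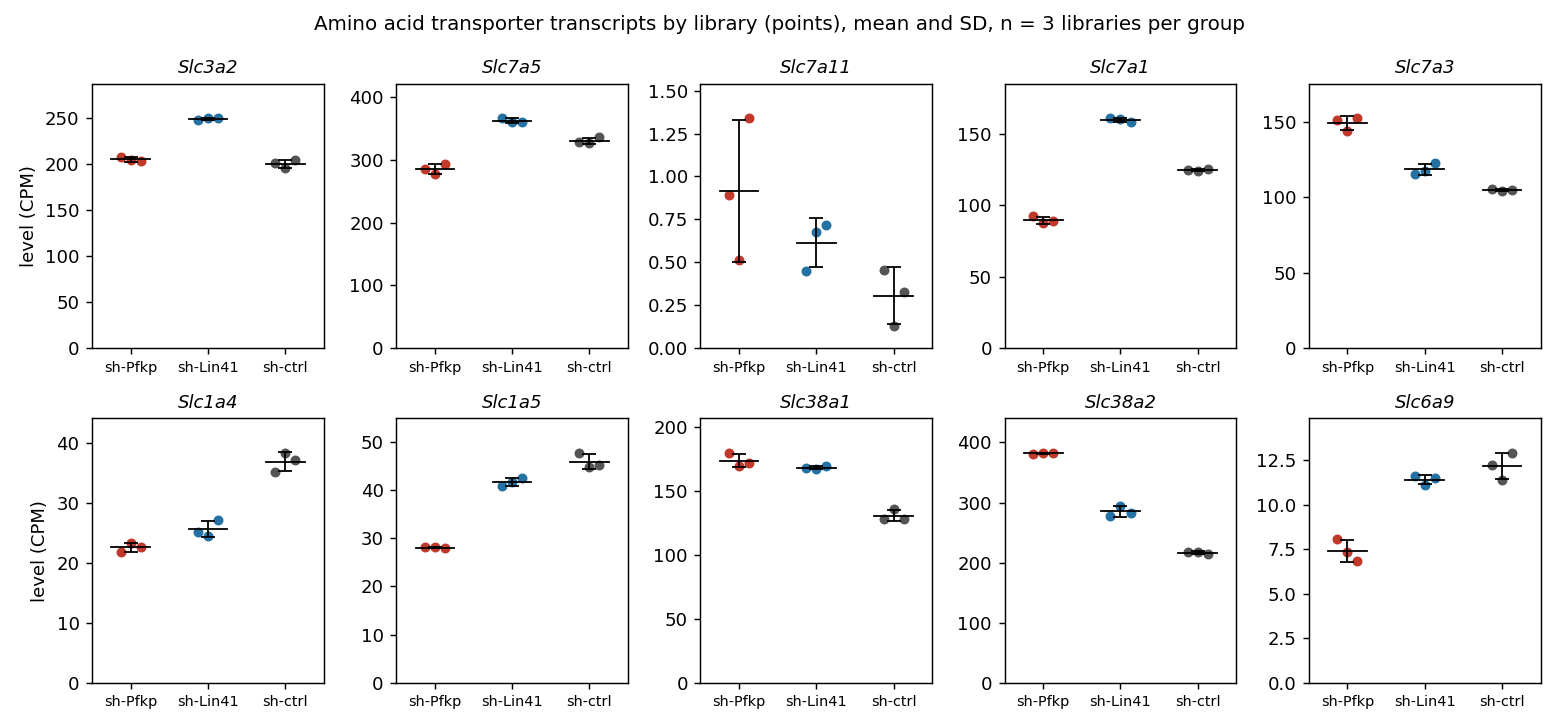
CPM of each transporter (y axes, each from 0) in the 3 libraries of sh-Pfkp, sh-Lin41 and sh-ctrl; points are libraries, bars the mean and SD. Slc38a2 is at 381.5 to 382.6 CPM in sh-Pfkp, 277.0 to 295.0 CPM in sh-Lin41 and 214.4 to 218.0 CPM in sh-ctrl, and Slc7a11 stays at or under 1.34 CPM.

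The exchangers of alanine, serine, cysteine and, for ASCT2, glutamine were lower in both knockdowns. Slc1a4 had 21.8, 23.3 and 22.6 CPM in sh-Pfkp, 25.2, 24.5 and 27.1 CPM in sh-Lin41, and 35.1, 38.3 and 37.1 CPM in sh-ctrl. All knockdown libraries lay below all controls. It fell by 0.70 in sh-Pfkp (SE 0.0593, adjusted p = 9.48e-12, edgeR) and by 0.53 in sh-Lin41 (SE 0.0575, adjusted p = 2.77e-09, edgeR), log2 values. The difference between the knockdowns, -0.18 (adjusted p = 0.0152, edgeR), missed the threshold without sh-Pfkp replicate 1 (adjusted p = 0.0734) or without sh-Lin41 replicate 3 (adjusted p = 0.100), and with DESeq2 (adjusted p = 0.0617). Slc1a5 had 28.1, 28.1 and 28.0 CPM in sh-Pfkp, 40.8, 41.6 and 42.4 CPM in sh-Lin41, and 47.7, 44.7 and 45.2 CPM in sh-ctrl. Here sh-Pfkp was far lower and sh-Lin41 just below the controls. The log2 fold change was -0.71 in sh-Pfkp (SE 0.0499, adjusted p = 1.41e-13, edgeR) and -0.57 between the knockdowns (SE 0.0497, adjusted p = 2.04e-11, edgeR). In sh-Lin41 it was -0.14 (SE 0.0463, adjusted p = 0.0110, edgeR), a call lost without sh-ctrl replicate 1 (-0.11, adjusted p = 0.0672, edgeR) and not made in the authors' deposited table, where its FDR was 0.0864. Summed FPKM of the pair was 15.6 ± 0.167 in sh-Pfkp, 21.8 ± 0.644 in sh-Lin41 and 26.4 ± 0.148 in sh-ctrl (SD, n = 3 each).

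Slc38a1 and Slc38a2, sodium-coupled system A carriers of glutamine and other small neutral amino acids, were higher in both knockdowns. Their paralog Slc38a4 went the other way, with a log2 fold change of -0.31 in sh-Pfkp (adjusted p = 1.29e-11, edgeR). In sh-Lin41 its log2 fold change was -0.28 (adjusted p = 1.01e-10, edgeR). Slc38a2, one of the members that amino acid shortage is known to induce, had 381.5, 382.2 and 382.6 CPM in sh-Pfkp, 277.0, 295.0 and 283.3 CPM in sh-Lin41, and 218.0, 217.8 and 214.4 CPM in sh-ctrl. The 3 groups were well apart, with sh-Pfkp highest. It rose by 0.82 in sh-Pfkp (SE 0.0234, adjusted p = 9.26e-24, edgeR), a percent change of 76.3, and by 0.40 in sh-Lin41 (SE 0.0239, adjusted p = 2.48e-15, edgeR). The direct difference was 0.42 (SE 0.0224, adjusted p = 1.19e-16, edgeR). Slc38a1 had 180.1, 169.9 and 172.3 CPM in sh-Pfkp, 168.3, 167.8 and 169.6 CPM in sh-Lin41, and 128.3, 136.1 and 128.6 CPM in sh-ctrl. Both knockdowns lay above the controls and close to each other. The rise was 0.41 in sh-Pfkp (SE 0.0294, adjusted p = 1.88e-13, edgeR) and 0.36 in sh-Lin41 (SE 0.0293, adjusted p = 3.06e-12, edgeR), and the 0.05 between the knockdowns missed the threshold (95% interval -0.01 to 0.10, adjusted p = 0.153, edgeR). In FPKM the rise of Slc38a1 was smaller: the log2 ratio of mean FPKM in the authors' deposited table was 0.22 in sh-Pfkp and 0.20 in sh-Lin41. FPKM and CPM differ here in scaling as well as in length. Over all tested genes the median in sh-Pfkp against sh-ctrl was -0.0489 on log2(FPKM + 0.1) and -0.005 in the edgeR fit. Summed FPKM of Slc38a1 and Slc38a2 was 109.0 ± 1.01 in sh-Pfkp, 90.3 ± 1.72 in sh-Lin41 and 71.8 ± 1.26 in sh-ctrl (SD, n = 3 each).

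Slc6a9, the glycine carrier best known from glia and erythroid cells, had 8.05, 7.33 and 6.81 CPM in sh-Pfkp, 11.6, 11.1 and 11.5 CPM in sh-Lin41, and 12.2, 11.4 and 12.9 CPM in sh-ctrl. All sh-Pfkp libraries were below the rest, and sh-Lin41 and sh-ctrl overlapped. It fell by 0.72 in sh-Pfkp (SE 0.101, adjusted p = 3.98e-07, edgeR), and sh-Pfkp lay 0.62 below sh-Lin41 on the log2 scale (log2 fold change -0.62, adjusted p = 3.67e-06, edgeR). The sh-Lin41 value of -0.09 missed the threshold (95% interval -0.29 to 0.10, adjusted p = 0.413, edgeR).

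Levels of different genes can be set beside each other only per length. In sh-ctrl the mean FPKM was 122.2 for Slc3a2, 95.1 for Slc7a5, 47.0 for both Slc38a2 and Slc7a3, 24.8 for Slc38a1, 19.6 for Slc7a1, 16.8 for Slc1a5, 9.59 for Slc1a4, 3.87 for Slc6a9 and 0.0333 for Slc7a11. Only Slc38a2 and Slc7a3 overlapped among neighbours in this order. In sh-Pfkp, Slc38a2 stood at 80.2 ± 0.195 FPKM, overlapping Slc7a5 at 79.4 ± 2.33 FPKM and above Slc7a3 at 64.9 ± 2.09 FPKM (SD, n = 3 each). In sh-Lin41, Slc38a2 at 61.8 ± 1.78 FPKM lay below Slc7a5 at 104.1 ± 1.31 FPKM. The FPKM of all 10 summed to 405.1 ± 5.85 in sh-Pfkp, 448.9 ± 4.28 in sh-Lin41 and 385.9 ± 1.83 in sh-ctrl (SD, n = 3 each).

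**Figure D3:**
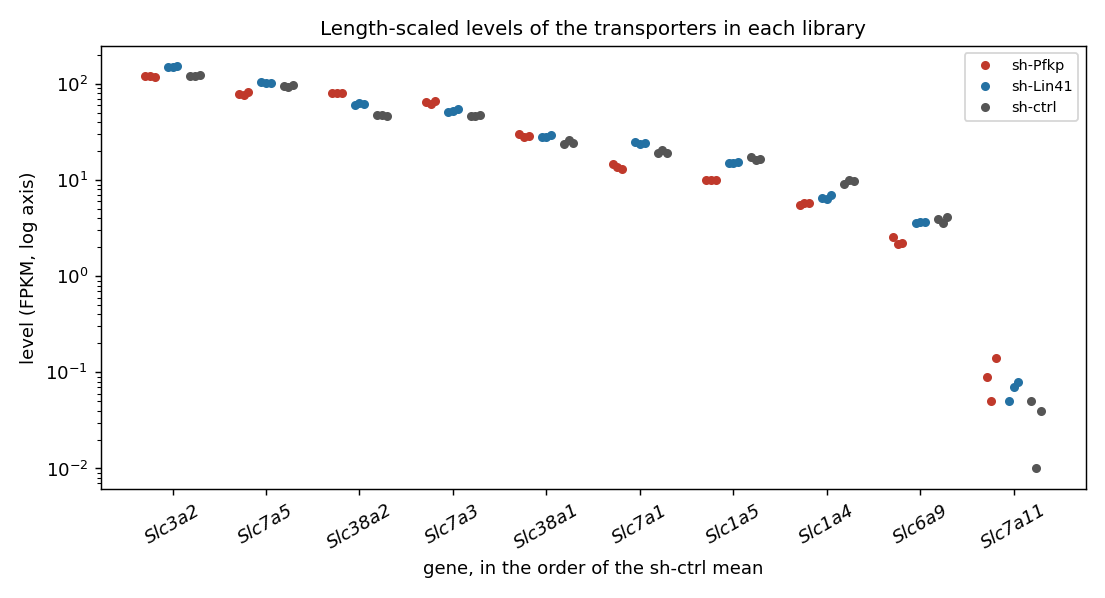
FPKM of the 10 transporters in each library (log y axis), ordered by the sh-ctrl mean, with sh-Pfkp, sh-Lin41 and sh-ctrl side by side. Slc3a2 is at 118.1 to 122.5 FPKM in sh-Pfkp, 149.9 to 153.7 in sh-Lin41 and 121.0 to 123.3 in sh-ctrl, and Slc7a11 lies at 0.140 FPKM or less in all 9 libraries.

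Ratios of related carriers within a library show which of a pair prevailed. In all, 15 ratio comparisons were made with two-sided exact permutation tests, whose smallest p with 3 against 3 libraries is 0.1 (0.136 after adjustment), so none could pass the threshold. Light chain Slc7a5 to heavy chain Slc3a2 was 0.661 ± 0.0263 in sh-Pfkp, 0.686 ± 0.0124 in sh-Lin41 and 0.778 ± 0.00814 in sh-ctrl (SD, n = 3 each), and both knockdowns lay below all controls. Slc38a2 to Slc38a1 was 2.78 ± 0.0953 in sh-Pfkp, 2.17 ± 0.0935 in sh-Lin41 and 1.90 ± 0.0825 in sh-ctrl (SD, n = 3 each), with no overlap between groups in FPKM. Counts per FPKM of Slc38a1, relative to the library median, were above sh-ctrl by 0.14 in sh-Pfkp and 0.16 in sh-Lin41, log2 values. In CPM, Slc38a2 and Slc38a1 rose by nearly as much in sh-Lin41, 0.40 and 0.36, and by 0.82 and 0.41 in sh-Pfkp. The sh-Lin41 shift of this ratio is thus given for FPKM only. Slc1a5 to Slc1a4 was 1.75 ± 0.0589 in sh-Pfkp, 2.30 ± 0.103 in sh-Lin41 and 1.75 ± 0.142 in sh-ctrl (SD, n = 3 each). That pair fell side by side in sh-Pfkp, where its ratio overlapped the controls, and sh-Lin41 alone lay higher. Slc7a11 to Slc3a2 was at most 0.00119 in every library and overlapped between sh-Lin41 and sh-ctrl.

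**Figure D4:**
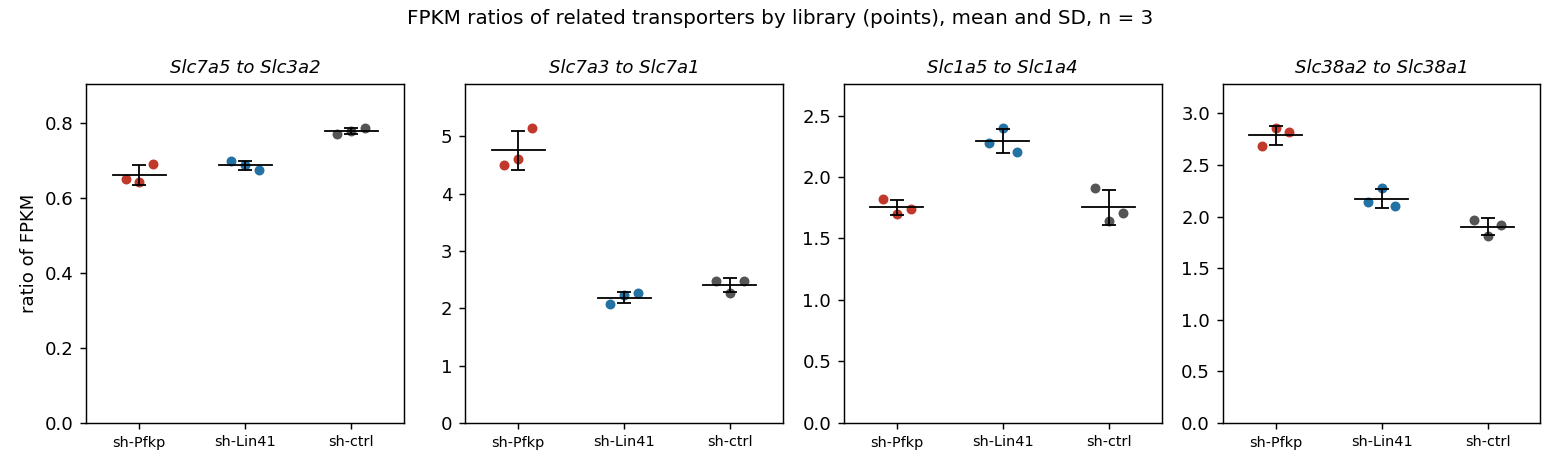
FPKM ratio within each library for 4 pairs of related transporters (y axes from 0) in sh-Pfkp, sh-Lin41 and sh-ctrl; points are libraries, bars the mean and SD. The Slc7a3 to Slc7a1 ratio averages 4.76 in sh-Pfkp, 2.18 in sh-Lin41 and 2.41 in sh-ctrl.

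Other amino acid carriers moved in both directions. Of 43 other amino acid transporters, 23 were tested, and 56.5% of these passed in each comparison, where 56.6% of all tested genes passed in sh-Pfkp against sh-ctrl, 54.3% in sh-Lin41 against sh-ctrl and 55.1% in sh-Pfkp against sh-Lin41. In sh-Pfkp against sh-ctrl 5 were higher and 8 lower, in sh-Lin41 against sh-ctrl 6 higher and 7 lower, and in sh-Pfkp against sh-Lin41 4 higher and 9 lower. With DESeq2 the first count was 4 higher and 4 lower, 34.8% of the 23, where 49.7% of all tested genes passed. Slc38a6, a paralog of the SNATs, rose by 0.55 in sh-Pfkp (294.2 ± 7.19 CPM in sh-Pfkp and 201.6 ± 5.97 CPM in sh-ctrl, SD, n = 3 each). The glutamine carriers SNAT3 and SNAT5 went the other way from Slc38a2: Slc38a3 fell by 1.66 and Slc38a5 by 1.09 in sh-Pfkp on the log2 scale. In sh-Lin41, Slc7a7, another light chain partner of Slc3a2, rose by 0.63, and Slc7a6, also a partner of Slc3a2, fell by 0.42. Among all 377 Slc symbols, 235 were tested, of which 58 rose and 75 fell in sh-Pfkp and 72 rose and 58 fell in sh-Lin41. That is 56.6% passing in sh-Pfkp and 55.3% in sh-Lin41, near the 56.6% and 54.3% of all tested genes. Of all tested genes 28.3% rose and 28.3% fell in sh-Pfkp, and 26.9% rose and 27.3% fell in sh-Lin41.

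Most other described targets of ATF4 went down in sh-Pfkp. The list held 25 symbols, Atf4 itself among them, on 26 rows, since Ddit3 has 2 identifiers, and 25 rows were tested. The counts below include Atf4. In sh-Pfkp against sh-ctrl 20 fell and 2 rose, with a median log2 fold change of -0.42. In sh-Lin41 against sh-ctrl 11 fell and 6 rose, with a median of -0.09. In sh-Pfkp against sh-Lin41 17 were lower and 3 higher, with a median of -0.32. In that order, 28.3%, 27.3% and 27.8% of all tested genes were lower and 28.3%, 26.9% and 27.4% higher. Medians over all tested genes were -0.005, 0.004 and -0.013. Of the list 88%, 68% and 80% passed, where 56.6%, 54.3% and 55.1% of all tested genes did. Of genes averaging 10 CPM or more, 63.3%, 63.4% and 64.4% passed, but the list also holds genes under that level. Chac1, which degrades glutathione, had 6.57 ± 0.147 CPM in sh-Pfkp and 20.6 ± 1.66 CPM in sh-ctrl (log2 fold change -1.64, n = 3 each), and Ddit4, an inhibitor of mTORC1 signalling, had 57.4 ± 0.925 CPM in sh-Pfkp and 102.6 ± 3.01 CPM in sh-ctrl (-0.84). The serine synthesis genes Phgdh and Psat1 fell by 0.74 and 0.47 on the log2 scale in sh-Pfkp. Sesn2 was one of the 2 on the list that rose there, by 0.38. Atf4 itself had 213.5 ± 0.918 CPM in sh-Pfkp, 299.8 ± 13.7 CPM in sh-Lin41 and 266.8 ± 3.64 CPM in sh-ctrl (SD, n = 3 each). Against sh-ctrl its transcript fell by 0.32 in sh-Pfkp (adjusted p = 7.85e-12, edgeR) and rose by 0.17 in sh-Lin41 (adjusted p = 1.57e-06, edgeR), log2 values, and the log2 fold change of sh-Pfkp against sh-Lin41 was -0.49 (adjusted p = 1.42e-16, edgeR). In sh-Lin41, Ddit4 fell by 1.20, Phgdh by 0.48 and Asns, asparagine synthetase, by 0.35, while Aldh18a1, of proline synthesis, rose by 0.38. Of the 4 eIF2 alpha kinases, 1 rose and 2 fell in sh-Pfkp, and 2 rose and 1 fell in sh-Lin41. Eif2ak1, the heme-regulated kinase, rose by 0.28 in sh-Pfkp and by 0.19 in sh-Lin41, while Eif2ak4, which encodes GCN2, fell by 0.15 in sh-Pfkp and by 0.16 in sh-Lin41. Eif2ak2, the kinase PKR, fell by 0.21 in sh-Pfkp, and Eif2ak3, the kinase PERK, rose by 0.30 in sh-Lin41.

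**Figure D5:**
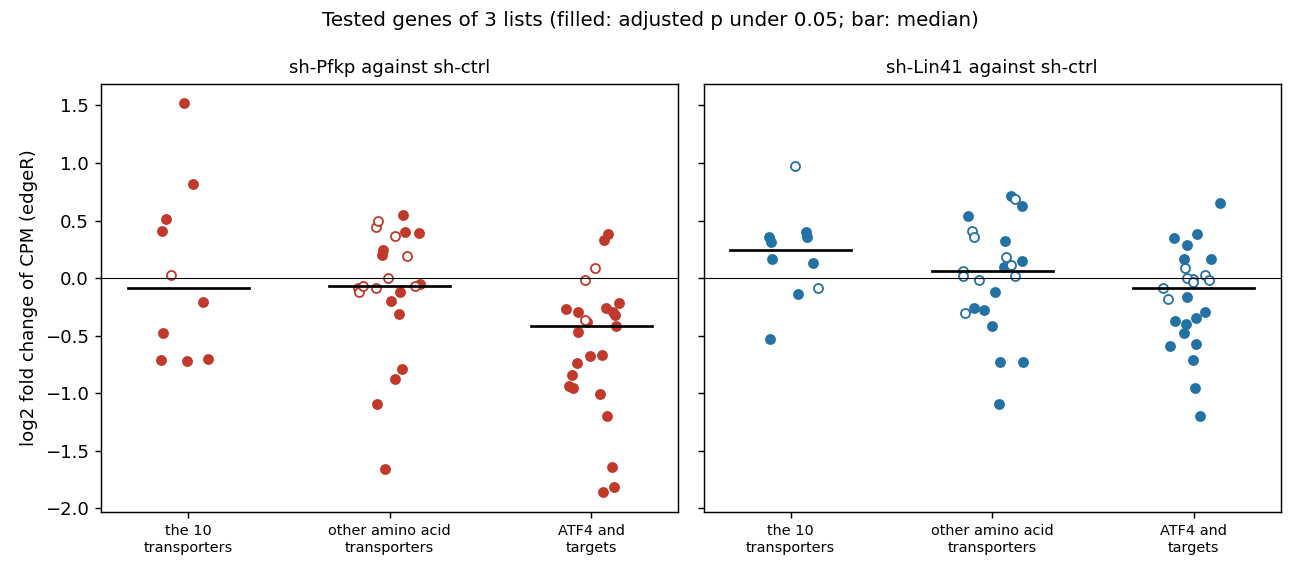
Log2 fold change (y axis) of the tested genes of 3 lists, the 10 transporters, other amino acid transporters, and ATF4 with its described targets, in sh-Pfkp against sh-ctrl (left) and sh-Lin41 against sh-ctrl (right). Filled points have an adjusted p under 0.05 and bars are medians, which for the ATF4 list are -0.42 in sh-Pfkp and -0.09 in sh-Lin41.

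Genes that act on the carried amino acids were counted from lists in the same way, beside all tested genes, of which 28.3% rose and 28.3% fell in sh-Pfkp and 26.9% rose and 27.3% fell in sh-Lin41. Of 10 enzymes of glutamine and glutamate, 4 rose and 4 fell in sh-Pfkp, and 1 rose and 7 fell in sh-Lin41. Gpt2, which makes alanine from glutamate, fell by 0.68 in sh-Pfkp, and Glul, glutamine synthetase, rose by 0.14 in sh-Pfkp and by 0.37 in sh-Lin41. Of 6 glycine and serine enzymes, 1 rose and 2 fell in each knockdown against sh-ctrl. Gldc, of the glycine cleavage system, had 115.0 ± 1.38 CPM in sh-Pfkp, 73.1 ± 0.596 CPM in sh-Lin41 and 140.8 ± 2.74 CPM in sh-ctrl (SD, n = 3 each). Of 16 genes of amino acid sensing by mTORC1, 9 rose and 3 fell in sh-Pfkp, and 6 rose and 4 fell in sh-Lin41. Rragd, a Rag GTPase, rose by 0.75 in sh-Pfkp and fell by 0.66 in sh-Lin41 (1.40 between them, adjusted p = 8.96e-20, edgeR). Among 12 glutathione and NRF2 target genes, 5 rose and 2 fell in sh-Pfkp and 6 rose and 4 fell in sh-Lin41; Gclm, a subunit of the enzyme that uses the cysteine from cystine, rose by 0.23 in sh-Pfkp and by 0.24 in sh-Lin41. In the Myc family, whose members are known to act on Slc1a5 and Slc7a5 in tumour cells, 1 of 3 genes rose, 1 fell and 1 missed the threshold in each knockdown. Mycn had 159.9 ± 3.29 CPM in sh-Pfkp, 102.3 ± 2.39 CPM in sh-Lin41 and 84.9 ± 2.66 CPM in sh-ctrl (SD, n = 3 each). Mycl fell by 0.55 in sh-Pfkp and by 0.53 in sh-Lin41, and Myc was at 0.08 in sh-Pfkp (adjusted p = 0.168, edgeR) and 0.09 in sh-Lin41 (adjusted p = 0.127, edgeR), log2 values.

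For the 3 transporters with the largest fold change in sh-Pfkp, the genes most alike over the 9 libraries were listed by Pearson's r of log2(CPM + 1). They were drawn from 11771 genes that averaged 1 CPM or more, after genes with no symbol or a predicted or clone name were left out. The libraries form 3 groups, so r mainly follows the group means and is given as a description. Slc38a2 was most like Azin1 (r = 0.997), Zfp997 (0.997) and Trim24 (0.996), and 293 genes exceeded 0.95. Azin1, which encodes an inhibitor of antizyme in polyamine control, had 227.8 CPM in sh-Pfkp, 186.4 CPM in sh-Lin41 and 151.9 CPM in sh-ctrl. Slc6a9 was most like Tspan15 (0.988), Nfic (0.987) and Dusp9 (0.985), and 134 genes exceeded 0.95. For Slc7a11 the closest were Gosr1 (0.930), Asb3 (0.923) and Scap (0.910), and 0 genes exceeded 0.95.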

How the data were processed

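Total RNA of embryoid bodies was extracted with Trizol and made into libraries with a NEBNext Ultra RNA kit, per the labels' protocols. Tools named in the submitters' processing notes are RSEM, HISAT2, StringTie 1.3.1, Bowtie2 2.2.8 and fastp 0.18.0. Neither the genome build and annotation nor the strand setting is given in the sources used here, and reads of overlapping or antisense genes cannot be told apart. Read counts were deposited as whole numbers for each gene and library, per the file headers, and may be rounded estimated counts, since RSEM is named. The authors deposited FPKM values per library in the same tables, with their log2 ratio of mean FPKM, a p-value from a test not given in the sources used here, and its FDR. Of the 22322 genes, 4283 had no count in any library. The control columns were identical in the 2 tables, and 1 fit took all 9 libraries.

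The deposited counts were tested with edgeR 4.0.16 (R 4.3.3) by filterByExpr by group, TMM scaling and a quasi-likelihood fit on group with 6 residual degrees of freedom, with Benjamini-Hochberg adjustment over 13158 genes and a threshold of 0.05. SE is the size of the log2 fold change over the square root of F, and intervals are at 95%. Steps were tested on simulated data. FPKM served for levels between genes, class sums and ratios within a library. Counting intervals cover counting error only. Replicate pairs differed by more than counting noise (median chi-square over genes 0.661 to 0.763, against 0.455 from counting alone), so no library was counted as a copy. The transporters and the gene lists were chosen with earlier results of these data known. All 10 transporters are named in every comparison. From other lists the text draws on up to 4 genes that passed with the smallest adjusted p and a mean of at least 1 CPM (2 between the knockdowns). Myc, Atf4 against sh-ctrl, and Nanog in sh-Pfkp were added after their values were seen. Alternatives were other scalings and filters, DESeq2 1.42.0, limma 3.58.1 with voom or on log2(FPKM + 1) and log2(FPKM + 0.1), a minimum fold, a replicate block, 6 libraries per fit, and each library left out in turn.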

Additional observations from a re-analysis of the deposited data

Results flagged for a closer look

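Slc7a5 and Slc7a1 moved in opposite directions in the knockdowns, and each differed between them by a direct test in the same fit. Of all 13158 tested genes, 918 (6.98%) were likewise called in both knockdowns in opposite directions and called between them. Slc7a5 had a log2 fold change of -0.21 in sh-Pfkp and 0.13 in sh-Lin41, both against sh-ctrl, and of -0.35 in sh-Pfkp against sh-Lin41 (adjusted p = 1.42e-14, edgeR). Slc7a1 had -0.48 in sh-Pfkp and 0.36 in sh-Lin41, both against sh-ctrl, and -0.84 in sh-Pfkp against sh-Lin41 (adjusted p = 3.17e-21, edgeR). For each gene, all 3 sh-Pfkp libraries lay below and all 3 sh-Lin41 libraries above the 3 control libraries in CPM.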

How the results depend on the processing

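Of 595 recomputed fold changes of the transporters, 584 kept their direction and their side of the threshold, 7 kept the direction but lost the call, and 4 changed sign. The sign changes are all of Slc3a2 in sh-Pfkp against sh-ctrl, never called: -0.01 with upper quartile scaling, -0.01 with total counts alone, and -0.02 with limma on log2(FPKM + 1) and on log2(FPKM + 0.1). Lost calls not given above are Slc7a11 in sh-Pfkp against sh-ctrl on log2(FPKM + 0.1) (0.52, adjusted p = 0.107, limma). Slc7a11 dropped out of the fit at 1 CPM in 3 libraries and of the fit of only the 6 libraries compared, which leaves 8 of 10 transporters called in sh-Pfkp. With an added limit of 1 on the size of the log2 fold change, 1, 0 and 0 transporters were called in sh-Pfkp against sh-ctrl, sh-Lin41 against sh-ctrl and sh-Pfkp against sh-Lin41. In that order the limit left 857, 560 and 591 of all genes, 2, 1 and 1 other transporters, and 5, 1 and 4 rows of the ATF4 list. DESeq2 called 8 other transporters in sh-Pfkp against sh-ctrl. Of the ratios, Slc7a11 to Slc3a2 in sh-Lin41 against sh-ctrl turned to -0.26 on log2(FPKM + 1), and Slc1a5 to Slc1a4 in sh-Pfkp against sh-ctrl, at 0.00, turned to -0.00 on CPM, -0.03 on log2(FPKM + 1), and -0.05 to 0.07 with single libraries left out. The cause of these changes was not tested. Calls of all genes in sh-Pfkp against sh-ctrl were 3721 higher and 3730 lower, but 2507 higher and 3802 lower on log2(FPKM + 1). Same-numbered libraries deviated from their group means with r of -0.0872 to 0.0992 over all tested genes, so the numbers were not taken to pair samples. In a fit with a replicate block, 9, 8 and 8 transporters, and 7435, 7109 and 7196 of all genes, were called in the order above; the other counts stayed within 1.5 times. Depth limits only Slc7a11, with 2 to 23 counts per library.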

Other observations

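Counts and FPKM of a gene differ by its effective length, so their ratio, relative to the library median, shows whether the authors' length estimate moved between groups. This comparison was chosen after seeing the data. For Slc38a1 the ratio was 2.14, 2.16 and 2.14 in sh-Pfkp, 2.2, 2.19 and 2.13 in sh-Lin41, and 1.96, 1.91 and 1.95 in sh-ctrl. Both knockdowns lay above the controls, by 0.14 on the log2 scale in sh-Pfkp and by 0.16 in sh-Lin41, and 3.97% and 3.31% of 9942 genes were at least as far from 0. For the other 8 transporters with enough counts, the ratios of the groups overlapped. The transcript isoforms behind this were not tested.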
